A study of Mus musculus with 2 samples.

Results

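The genes described here are 6 genes of the creatine kinase and adenylate energy buffer: Slc6a8, Ckm, Ckmt2, Ckb, Ak1 and Ampd1. They were taken by name, out of 21911 protein-coding genes in the GENCODE M21 annotation, and the data for each gene are the open chromatin peaks and footprints in its body and the 20 kb on both sides. DNase-seq, in which the enzyme DNase I cuts chromatin where it is accessible and the cuts are sequenced, was run on gastrocnemius, the main calf muscle, of male adult B6CASTF1/J mice aged 18 to 20 months. B6CASTF1/J is an F1 hybrid of the C57BL/6J and CAST/EiJ strains, and reads of both alleles were placed on the C57BL/6J-based build mm10, so alleles were not separated. The 2 samples belong to 1 group and are numbered as biological replicates 1 and 2. They share a donor label but not a biosample label. It is therefore not known if 1 animal gave both, and an SD (n = 2) measures only how far apart these 2 samples lie. The study has no treated group, control or other age, so no difference between conditions was tested and no p-value is given. The tissue was whole muscle: fewer nuclei of a cell type and less accessible chromatin per nucleus cannot be told apart.

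Muscle fibres keep ATP steady during contraction by moving a phosphate group from phosphocreatine to ADP, a reaction run in both directions by creatine kinase. Creatine enters the fibre through the transporter SLC6A8. Mitochondrial creatine kinase recharges creatine near the site of ATP synthesis, and cytosolic creatine kinase uses phosphocreatine beside the myofibrils. When demand exceeds this buffer, adenylate kinase makes ATP and AMP from ADP, and AMP deaminase removes the AMP as IMP. In mouse, Ckm is a long-studied target of the MyoD family, which binds E-boxes, and of MEF2 factors, through an enhancer upstream of its start site.

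The larger of the deposited peak lists held 131398 peaks in replicate 1 and 91567 in replicate 2, and the footprint lists held 339656 and 234091 footprints. A footprint is a short stretch inside open chromatin with few cuts, as under a bound protein. The signal at a peak is in the authors' unit, whose scale is not stated, and read depth is unknown, so no counting interval is given. Replicate 1 had the longer lists, but its median peak signal was lower, 0.599 against 0.760 in replicate 2. The 10 skeletal fibre markers (such as Acta1, Actn3 and Casq1) all had a promoter peak in both replicates. Of 5 heart and 5 liver markers, 1 heart marker had one in each replicate, and 2 and 1 liver markers in replicates 1 and 2; the defining genes Myh6, Nppa, Alb and Ttr had none. All 5 endothelial markers were also open, at low signals of 0.437 to 1.51 in replicate 1 and 0.755 to 1.84 in replicate 2. Of 5 macrophage and immune markers 3 were open in each replicate, and Ptprc and Csf1r had no promoter peak. Of 5 smooth muscle and mural markers 5 and 4 were open, and of 5 neuron markers 3 and 2.

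The sequences below carry the results that follow: a peak over an annotated start site of each gene (for Ak1 the second, since none lay at the first), plus the upstream peaks of Ckm and Ckmt2 and the strong peak downstream of Ckb. All are RefSeq sequence of GRCm38.p6 (mm10), read 5′ to 3′ on the strand of the gene. Each is up to 300 bp about the middle of a replicate 1 peak, ended 30 bases past the first start site it holds. Capitals mark bases under a footprint of either replicate. The stretches are Slc6a8 start peak (chrX:73672981-73673180 on the plus strand), Ckm start peak (chr7:19410761-19411055 on the plus strand), Ckm upstream peak (chr7:19409761-19410060 on the plus strand), Ckmt2 start peak (chr13:91876855-91877060 on the minus strand), Ckmt2 upstream peak (chr13:91877411-91877710 on the minus strand). The others are Ckb start peak (chr12:111672308-111672500 on the minus strand), Ckb downstream peak (chr12:111668411-111668710 on the minus strand), Ak1 second start peak (chr2:32625291-32625467 on the plus strand) and Ampd1 start peak (chr3:103073821-103074044 on the plus strand).
Slc6a8 start peak: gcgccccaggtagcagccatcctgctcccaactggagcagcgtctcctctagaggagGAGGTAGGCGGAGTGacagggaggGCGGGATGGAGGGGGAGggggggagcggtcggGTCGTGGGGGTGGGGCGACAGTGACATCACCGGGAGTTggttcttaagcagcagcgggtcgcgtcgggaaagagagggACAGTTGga
Ckm start peak: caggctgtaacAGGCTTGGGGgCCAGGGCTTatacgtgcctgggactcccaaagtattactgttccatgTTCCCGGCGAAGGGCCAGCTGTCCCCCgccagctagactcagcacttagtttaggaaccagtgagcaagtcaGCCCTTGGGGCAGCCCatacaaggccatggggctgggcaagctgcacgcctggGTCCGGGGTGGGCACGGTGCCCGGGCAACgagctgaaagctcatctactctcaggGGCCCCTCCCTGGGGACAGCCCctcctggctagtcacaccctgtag
Ckm upstream peak: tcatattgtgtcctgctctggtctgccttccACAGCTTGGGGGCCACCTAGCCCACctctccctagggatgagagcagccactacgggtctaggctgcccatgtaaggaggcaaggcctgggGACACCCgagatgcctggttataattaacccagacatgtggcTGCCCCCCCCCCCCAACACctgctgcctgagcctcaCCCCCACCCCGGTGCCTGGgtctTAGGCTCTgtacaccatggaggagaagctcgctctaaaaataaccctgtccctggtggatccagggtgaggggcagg
Ckmt2 start peak: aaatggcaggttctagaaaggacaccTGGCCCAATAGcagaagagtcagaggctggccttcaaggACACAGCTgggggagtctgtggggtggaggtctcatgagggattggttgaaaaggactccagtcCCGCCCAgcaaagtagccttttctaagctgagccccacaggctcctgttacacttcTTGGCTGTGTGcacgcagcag
Ckmt2 upstream peak: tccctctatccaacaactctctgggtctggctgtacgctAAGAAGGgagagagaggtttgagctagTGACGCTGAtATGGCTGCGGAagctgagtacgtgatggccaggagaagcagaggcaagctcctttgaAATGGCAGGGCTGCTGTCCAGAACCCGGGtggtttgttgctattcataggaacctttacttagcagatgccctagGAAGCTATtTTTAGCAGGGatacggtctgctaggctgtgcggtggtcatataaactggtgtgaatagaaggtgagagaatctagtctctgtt
Ckb start peak: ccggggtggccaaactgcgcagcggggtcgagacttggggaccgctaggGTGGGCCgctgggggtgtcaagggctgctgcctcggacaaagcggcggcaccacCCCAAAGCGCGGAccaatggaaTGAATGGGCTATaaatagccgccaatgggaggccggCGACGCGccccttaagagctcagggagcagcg
Ckb downstream peak: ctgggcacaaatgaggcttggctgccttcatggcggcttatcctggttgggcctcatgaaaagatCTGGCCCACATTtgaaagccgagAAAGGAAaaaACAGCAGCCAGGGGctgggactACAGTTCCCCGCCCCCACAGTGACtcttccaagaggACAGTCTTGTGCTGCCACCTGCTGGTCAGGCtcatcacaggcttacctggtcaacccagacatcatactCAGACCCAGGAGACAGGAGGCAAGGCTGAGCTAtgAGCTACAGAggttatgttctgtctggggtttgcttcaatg
Ak1 second start peak: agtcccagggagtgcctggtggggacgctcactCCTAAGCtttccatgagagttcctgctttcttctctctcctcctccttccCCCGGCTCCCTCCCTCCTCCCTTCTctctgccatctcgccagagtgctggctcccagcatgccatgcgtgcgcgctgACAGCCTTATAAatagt
Ampd1 start peak: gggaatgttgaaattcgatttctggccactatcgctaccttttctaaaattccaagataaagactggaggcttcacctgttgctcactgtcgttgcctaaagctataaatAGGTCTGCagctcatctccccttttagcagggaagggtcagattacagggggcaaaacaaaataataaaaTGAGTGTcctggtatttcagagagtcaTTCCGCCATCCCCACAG

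A promoter was taken as 1000 bp on either side of every annotated protein-coding start site. A peak lay in the promoter of all 6 genes in replicate 1 and of 5 of 6 in replicate 2, the exception being Ampd1, so 5 of 6 had one in both. The background over all 21911 genes was 65.7% open in replicate 1, 63.6% open in replicate 2 and 62.4% open in the 2 together. The strongest promoter peak had the highest signal at Ckm, at 4.82 in replicate 1 and 3.78 in replicate 2 (4.30 ± 0.738, SD, n = 2). Ak1 followed at 3.40 and 3.06 (3.23 ± 0.239), then Ckmt2 at 2.64 and 1.62 (2.13 ± 0.728), Slc6a8 at 1.81 and 1.96 (1.88 ± 0.102) and Ckb at 1.39 and 1.46 (1.42 ± 0.0482, SD, n = 2 each). Ampd1 had 1.08 in replicate 1 and no peak in replicate 2. For Ak1 the strongest peak was a different one in each replicate, in the first intron in replicate 1 and in intron 2 in replicate 2. Among neighbours in this order the values of the replicates overlapped only for Ckmt2 and Slc6a8, which changed places between replicate 1 and replicate 2. The values of the other neighbours did not overlap over these 2 samples, and no test was made. The median over genes with a promoter peak was 3.17 in replicate 1 and 3.42 in replicate 2. Only Ckm in both replicates, and Ak1 in replicate 1, lay above those medians, at the 68.1 and 54.2 percentiles for Ckm and the 52.7 percentile for Ak1.

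**Figure D1:**
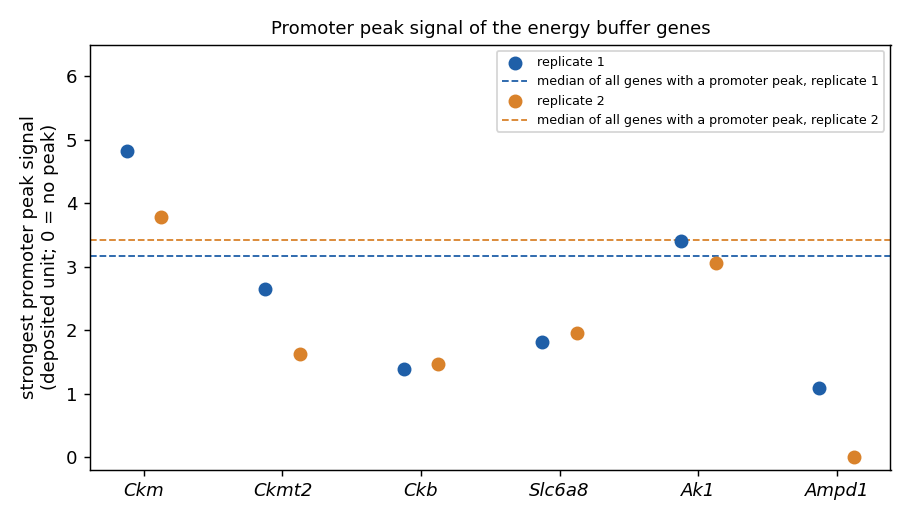
Strongest promoter peak signal (authors' unit) of each gene, with 1 point per replicate and dashed lines at the median of all genes with a promoter peak in each replicate. Ckm is highest at 4.82 and 3.78, and Ampd1 in replicate 2 stands at 0 because no peak was called.

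Most of the windows were denser in peaks than the median gene, even where promoter signals were moderate. The 6 windows held 93 peaks in replicate 1 and 53 in replicate 2, peaks of neighbouring genes included. With flanks of 10 kb in place of 20 kb, Ak1 had 12 and 6 peaks instead of 20 and 15, while Ckm kept 26 and 8. Peaks per 10 kb of window were 4.48 and 1.38 for Ckm in replicates 1 and 2, 3.75 and 2.81 for Ak1, and 2.63 and 1.62 for Slc6a8. They were 2.56 and 2.33 for Ckb, 2.13 and 1.37 for Ampd1, and 1.42 and 0.472 for Ckmt2. The medians over all genes were 0.821 and 0.580, so 5 of the 6 genes were above them in both replicates, and Ckmt2 in replicate 1 only. Ckm in replicate 1 was at the 99.4 percentile of all genes and in replicate 2 at the 83.3 percentile, while Ak1 was at the 98.8 and 97.4 percentiles. The share of window bases with a false discovery rate under 0.05 in the deposited site files was 16% and 5.20% for Ckm, 12.6% and 9.37% for Ak1, and 8.98% and 9.34% for Ckb. It was 8.28% and 4.85% for Ampd1, 7.46% and 4.06% for Slc6a8, and 4.41% and 1.69% for Ckmt2, against medians over all genes of 2.96% and 2.10%.

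**Figure D2:**
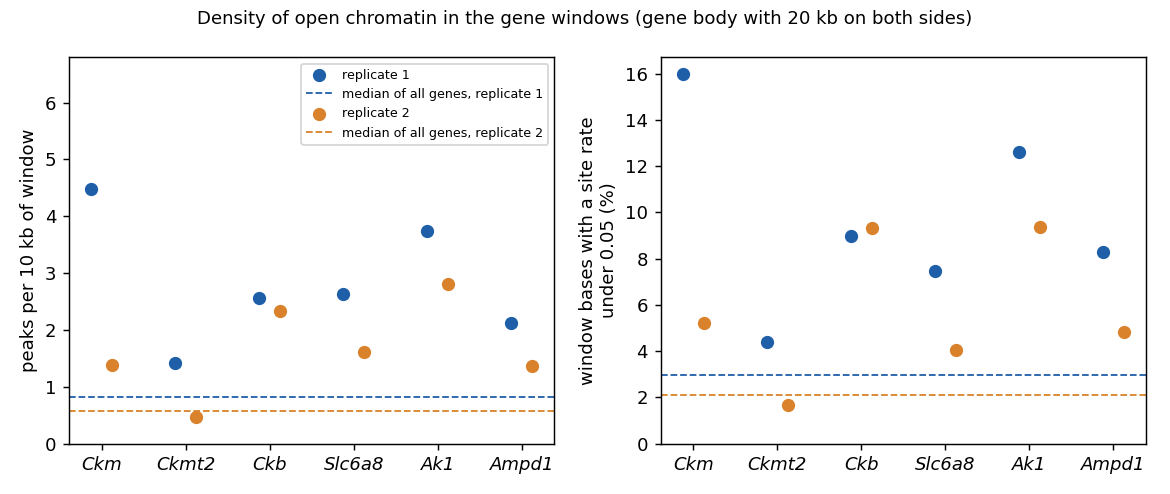
Peaks per 10 kb of window (left) and percentage of window bases with a site false discovery rate under 0.05 (right) for each gene, with 1 point per replicate and dashed lines at the medians of all genes. The replicates lie closest for Ckb, at 2.56 and 2.33 peaks per 10 kb, and farthest apart for Ckm, at 4.48 and 1.38.

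Peaks found in replicate 1 alone were the weaker ones: their median signal was 0.457 to 0.820 by gene, against 1.07 to 2.86 for the replicate 1 peaks that replicate 2 shared. Of the 93 replicate 1 peaks, 50 (53.8%) overlapped a replicate 2 peak by at least 1 bp, against 58.4% of all replicate 1 peaks. Of the 53 replicate 2 peaks, 49 (92.5%) overlapped a replicate 1 peak, against 83.6% of all replicate 2 peaks. Merged over replicates, the windows held 92 open regions, 47 of them called in both. Of 18 regions at promoters of the 6 genes 13 were called in both, of 21 in their introns 6, and of 10 in their exons 4. Another 26 lay in the promoter or body of another gene, 14 of them called in both, and 17 lay between genes, 10 of them in both. Shares by place over all genes are not given here, so these counts are not read as a trait of the 6 genes.

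Slc6a8 encodes the plasma membrane creatine transporter, through which muscle takes up creatine from the blood. It lies on the X chromosome (chrX:73673150-73682502, plus strand, mm10), of which these male mice have a single copy; the effect of copy number on its signal was not tested. Its start peak, over the first annotated start site, was at 1.81 and 1.96 in replicates 1 and 2. A weaker region 845 bp upstream had 1.04 and 0.945, and a region in intron 1, 1451 bp downstream of the first start, had 0.914 and 0.833. Those 3 promoter regions were called in both replicates at nearly equal signals. Its window held 13 and 8 peaks, 8 of them shared, with 28 and 24 footprints. The 5 peaks found in replicate 1 alone were weak, at 0.442 to 0.482. Downstream, regions in Bcap31, an endoplasmic reticulum protein gene, reached 1.60 and 1.31.

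The Slc6a8 start peak was 69% G and C with an observed to expected CpG ratio of 0.79, in a 300 bp window, against medians of 61% and 0.68 over the promoter peaks of replicate 1. A GC box, GGGCGG, lay at positions 80 to 85 of the printed sequence, overlapping a replicate 2 footprint. The motif CCACCC lay at 121 to 126 on the opposite strand, touching a footprint (at least 1 base shared) in both replicates. GGGCGG was in 51.7% of replicate 1 promoter peaks and CCACCC in 36.9%. A match is a description of the letters and not a bound site.

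Ckm encodes the cytosolic muscle creatine kinase. Its record spans chr7:19404776-19422841 (plus strand), but the left end is the start of a non-coding transcript, and the protein-coding starts are at 19411025 and 19411063. The start peak (chr7:19410741-19411120) covered both, at 4.82 in replicate 1 and 3.78 in replicate 2. An upstream region (chr7:19409542-19410120), centred 1194 bp before the first coding start, had 1.61 and 1.02. A region in intron 1 (chr7:19411841-19412144), 968 bp after the start, had 1.93 and 1.10. A further region 5434 bp upstream (chr7:19405501-19405680), in an intron of the non-coding transcript, had 2.37 and 2.94, and was the only one of the 7 regions called in both that was higher in replicate 2. At the other end, a region in the 3′ UTR part of the last exon (chr7:19421341-19421600) had 2.11 and 1.98.

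Between those regions the replicates differed. The Ckm window held 26 peaks in replicate 1 and 8 in replicate 2, with 77 and 33 footprints, 67 and 28 of them inside peaks. All 8 replicate 2 peaks overlapped a replicate 1 peak. The 18 peaks called in replicate 1 alone had signals of 0.365 to 0.701 (median 0.520), against a median of 1.77 for the 8 shared ones. Of the 18, 8 were also in the authors' smaller peak list, and 1 overlapped bases with a false discovery rate under 0.05 in replicate 2. They lay in introns, coding exons and the last exon of Ckm, between genes, and in the body of Mark4, a kinase gene downstream, with 1 at the promoter of Klc3, a kinesin light chain gene. From the first coding start to the end of the gene, 37.3% of bases had a false discovery rate under 0.05 in replicate 1 and 7.17% in replicate 2. With only as many top peaks of replicate 1 as replicate 2 has in all, the counts were 25 and 8. In the smaller lists they were 16 and 6, and with the better 50% of each list by signal 14 and 8, so more peaks in replicate 1 were counted under each of these choices.

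**Figure D3:**
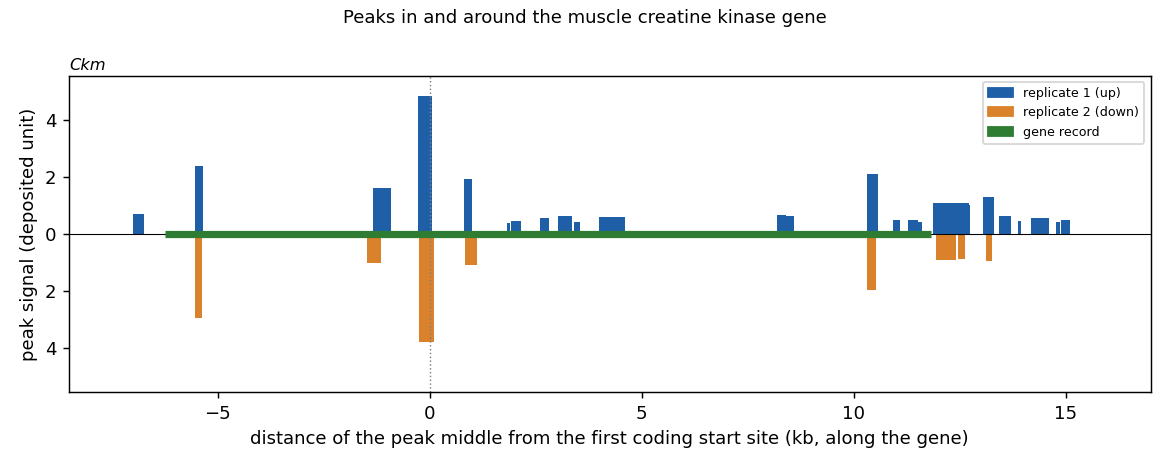
Peaks around the first coding start of Ckm (dotted line), drawn as bars at their distance from the start (kb) with height equal to the signal (authors' unit), replicate 1 upward and replicate 2 downward, and the gene record as a green bar. The start peak reaches 4.82 and 3.78, and the low peaks of 0.365 to 0.701 across and beyond the gene body appear in replicate 1 only.

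The Ckm start peak held 7 footprints in replicate 1 and 5 in replicate 2 in 300 bp, and 79 of the 117 bases under a footprint of either replicate were under one in both. An E-box, CAGCTG, the core preferred by MyoD and myogenin, lay at positions 85 to 90 of the printed start sequence, 180 bp before the start, within a footprint of both replicates. This motif was in 25% of replicate 1 peaks and in 18.6% of promoter peaks. The upstream peak held 3 and 4 footprints, with 18 of 78 such bases in both. It held another E-box, CACCTG, at 181 to 186, touching a footprint of replicate 1, and a MEF2 motif at 141 to 150 and again at 257 to 266, outside footprints. CACCTG was in 19.5% and a MEF2 motif in 4.47% of replicate 1 peaks. The intron 1 peak held CACCTG in 2 places, outside footprints. The start peak had 63% G and C and a CpG ratio of 0.30, below the promoter peak median of 0.68.

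Ckmt2 encodes the sarcomeric mitochondrial creatine kinase, found between the mitochondrial membranes of muscle and heart. It lies at chr13:91853387-91876885 on the minus strand, with 1 annotated coding start. Its start peak (chr13:91876781-91877120) had 2.64 in replicate 1 and 1.62 in replicate 2, and an upstream peak (chr13:91877461-91877700), 696 bp before the start, had nearly the same, 2.44 and 1.42. Apart from these, a single region was called in both, 5406 bp upstream in the body of Rasgrf2, a guanine nucleotide exchange factor gene, at 0.802 and 0.878. The window held 9 and 3 peaks and 27 and 7 footprints. The 6 peaks of replicate 1 alone had 0.401 to 0.782, and 5 of them lay in Ckmt2 introns, 4 in intron 1 and 1 in intron 7. None of the 6 overlapped bases with a false discovery rate under 0.05 in replicate 2, and 5 of the 6 were in the smaller list. From start to end of the gene such bases made up 6.49% in replicate 1 and 0.719% in replicate 2.

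The Ckmt2 start sequence held CAGCTG at positions 69 to 74, touching a replicate 2 footprint, and CACCTG at 23 to 28, touching a replicate 1 footprint. Past the printed end, the 300 bp window held 1 copy of TCAAGGTCA, the extended half-site of the ERR receptors, which act on mitochondrial genes; it touched no footprint, and 0.594% of replicate 1 peaks held this motif. The upstream sequence held a MEF2 motif at 213 to 222, touching a replicate 1 footprint. A longer footprint there, at 134 to 160 in replicate 1 and 135 to 162 in replicate 2, was called in both. No motif searched lay in it other than CCACCC on the opposite strand at its edge. The start peak had 52.7% G and C and a CpG ratio of 0.14.

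Ckb encodes the cytosolic brain-type creatine kinase, which is broadly expressed and is replaced by Ckm as muscle matures. It is the shortest of the 6 genes (chr12:111669361-111672338, minus strand). Its start peak was weak, at 1.39 in replicate 1 and 1.46 in replicate 2, at the 25.9 and 23.7 percentiles of genes with a promoter peak. A region over exon 3 had 0.802 and 1.10. The strongest region of the window lay past the 3′ end of the gene (chr12:111668481-111668640), 3777 bp downstream of the start, at 6.10 and 6.44, the 97.8 and 96.8 percentiles of all peaks. It was the strongest region in any of the 6 windows except the promoter of Dennd2c beside Ampd1, at 6.37 and 7.22. The promoter of Trmt61a, a tRNA methyltransferase gene, lay 5703 bp upstream with 4.55 and 3.73. The Ckb window was the most alike between replicates, with 11 and 10 peaks, 10 of them shared, and 36 footprints in each.

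The Ckb downstream sequence held the consensus of CTCF, the insulator protein, at positions 170 to 181 on the opposite strand, inside a footprint of 158 to 187 in replicate 1 and 157 to 187 in replicate 2. The E-box CACCTG at 172 to 177 is part of the same letters. The CTCF consensus was in 4.60% of replicate 1 peaks. It was added to the motifs, with TATAAA, after footprints had been seen. At the Ckb start, a MEF2 motif at 134 to 143 overlapped TATAAA at 135 to 140, whose first base lies 28 bp before the start, and both touched a replicate 2 footprint only. The MEF2 motif was in 1.83% and TATAAA in 5.61% of replicate 1 promoter peaks. The Ckb start peak had 66.7% G and C and a CpG ratio of 0.79, like that of Slc6a8.

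**Figure D4:**
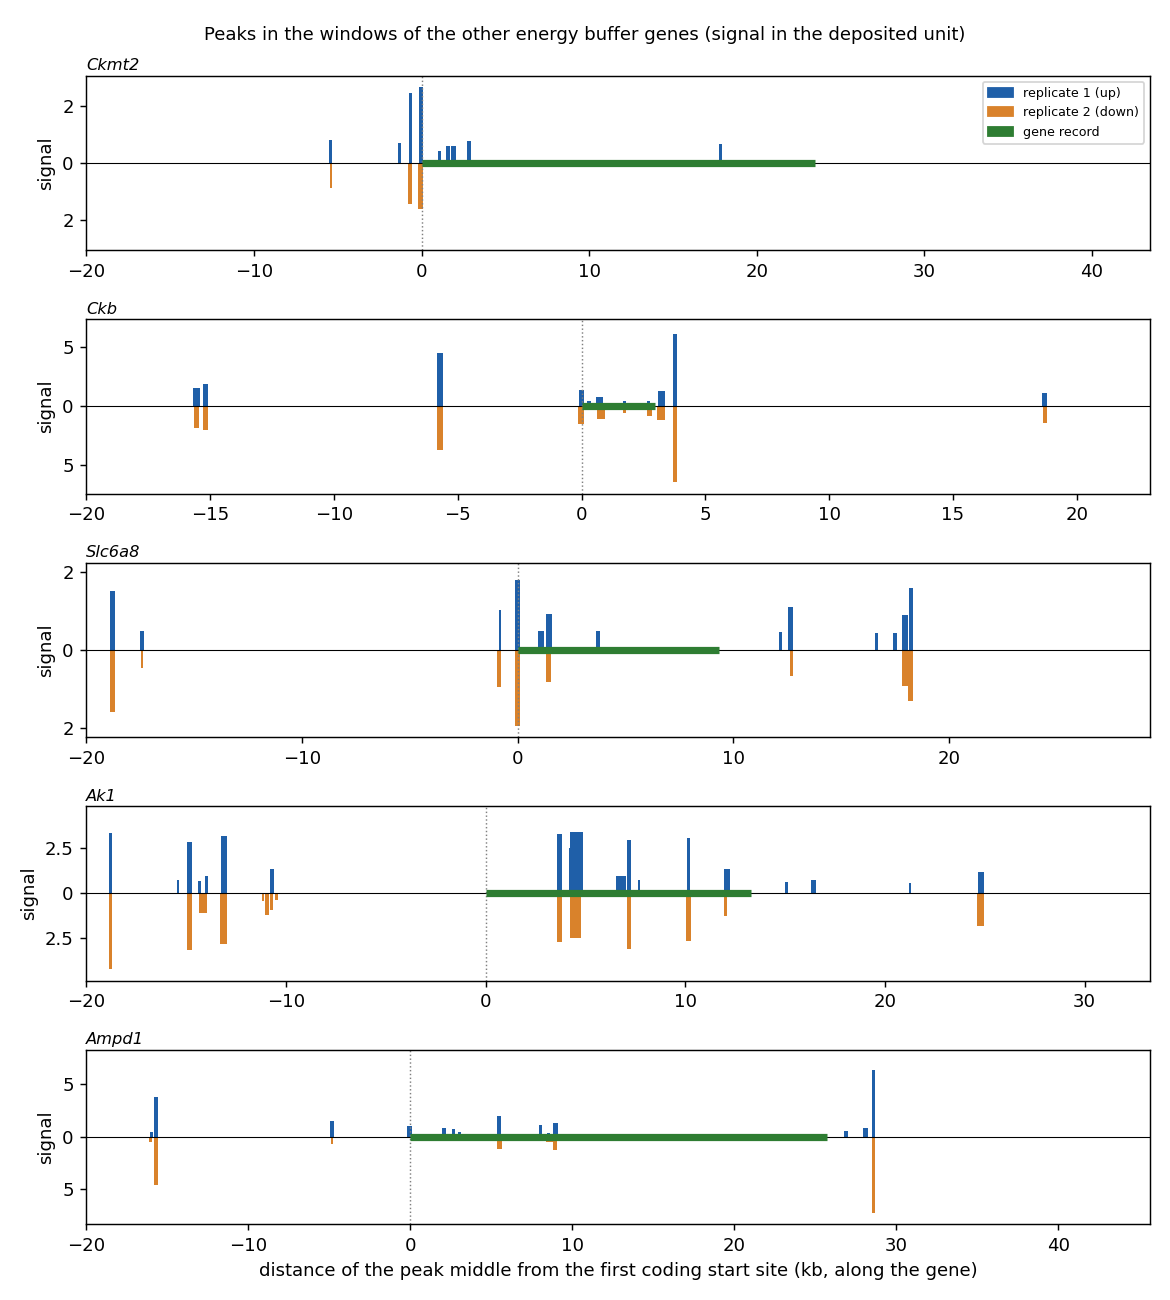
Peaks of Ckmt2, Ckb, Slc6a8, Ak1 and Ampd1, drawn as for Ckm: distance from the first coding start along the gene (kb) against signal (authors' unit), replicate 1 upward and replicate 2 downward. Signal axes differ between panels. The region downstream of Ckb stands at 6.10 and 6.44, and the peaks inside Ak1 begin 3683 bp after its first annotated start.

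Ak1 encodes adenylate kinase 1, the main cytosolic adenylate kinase of muscle. It lies at chr2:32621758-32635058 on the plus strand and has 5 annotated coding starts. No peak, and no base with a false discovery rate under 0.05, lay within 1000 bp of the first of these in either replicate. A peak lay over the second start, at 32625437, with 3.30 in replicate 1 and 2.68 in replicate 2. A wide region followed in the first intron (chr2:32625921-32626620), with 3.40 and 2.49, and another in intron 2 (chr2:32628821-32629020) with 2.96 and 3.06. A region in a later intron (chr2:32631801-32632020) had 3.05 and 2.66. These 4 regions had similar signals, and each was called in both replicates. The window held 20 and 15 peaks and 58 and 46 footprints, and reached the promoter of Eng, the endothelial TGF-beta co-receptor gene, at 1.21 and 1.81. It also reached St6galnac6, a sialyltransferase gene, with up to 3.37 and 4.22.

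The sequence at the second Ak1 start held a MEF2 motif at positions 167 to 176, overlapping TATAAA at 168 to 173, and touching a replicate 2 footprint. Its first base lies 20 bp after the annotated start, not before it. In the wide region only 300 bp (chr2:32626141-32626440) of its 700 bp were searched. That stretch held a CArG box, the serum response factor motif, outside footprints, and 1.43% of replicate 1 peaks held one. It also held CAGCTG and CACCTG once each, outside footprints.

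Ampd1 encodes the muscle AMP deaminase, which turns AMP into IMP. It lies at chr3:103074014-103099720 on the plus strand. Its start peak (chr3:103073841-103074100) was called at 1.08 in replicate 1 only; in replicate 2 no peak and no base with a false discovery rate under 0.05 lay within 1000 bp of the start. Regions inside the gene were called in both: one in intron 3 (chr3:103079361-103079700) at 1.99 and 1.13, and one in intron 4 (chr3:103082821-103083140) at 1.28 and 1.25. Intron 4 held a further pair called in both, chr3:103082021-103082097 at 1.09 and 0.430 and chr3:103082399-103082620 at 0.386 and 0.464. A region 4833 bp upstream had 1.49 and 0.637. The window held 14 and 9 peaks and 36 and 23 footprints. Its strongest peaks belonged to neighbours, the Ras gene Nras at 3.81 and 4.56 and Dennd2c, a Rab exchange factor gene, at 6.37 and 7.22.

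The Ampd1 start sequence held a MEF2 motif at 103 to 112, touching a replicate 1 footprint and overlapping TATAAA at 104 to 109, which starts 90 bp before the start. The Ckb and Ampd1 matches are the same 10 letters, and the Ak1 match differs in its first letter. The motif CATTCC, the core of TEAD factor sites, lay at 206 to 211 and touched a replicate 1 footprint. Another copy, at 2 to 7 on the opposite strand, lay outside footprints, and 12.2% of replicate 1 promoter peaks held this motif. The start peak was the poorest in G and C of those printed over a start, at 44.7%, with a CpG ratio of 0.27. An E-box, CACCTG, lay at 74 to 79 of the start sequence, outside footprints. E-boxes CAGCTG and CACCTG lay in the intron 3 peak, also outside footprints. With each footprint widened by 5 bp on both sides, CAGCTG lay whole in 5 of 262 footprints of the windows (1.91%) in replicate 1 and 5 of 169 (2.96%) in replicate 2, against 2.34% and 2.36% of all footprints. CACCTG lay in 2.29% and 2.96%, against 1.70% and 1.79% of all, and CCACCC 5.34% and 8.28%, against 3.07% and 3.52%. Without padding, CCACCC averaged 7 footprints per replicate instead of 14. GGGCGG lay in 7.25% and 7.69%, against 6.09% and 8.12%, and CATTCC in 1.53% and 1.18%, against 1.18% and 1.04%. A MEF2 motif lay in only 1 and 2 footprints. The windows include footprints of neighbouring genes, the other motifs are not listed here, and no test was made.

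Signals at the promoters were compared between replicates as log2 of replicate 2 over replicate 1, relative to the median of 0.10 over the 13683 genes with a promoter peak in both. The ratio was −0.71 for Ckmt2, lower than in all but 1.04% of genes, and −0.35 for Ckm, lower than in all but 5.01%. Ak1 had −0.15 (the 14.1 percentile), Ckb 0.07 (44.1) and Slc6a8 0.11 (52.1). The Ak1 ratio compares different peaks, in the first intron in replicate 1 and in intron 2 in replicate 2. Taken within the same region, it was −0.45 in the first intron, 0.05 in intron 2 and −0.30 over the second start. Ckm and Ckmt2 were thus lower in replicate 2 relative to other genes, while Ckb and Slc6a8 sat near the middle of all genes. Over the regions called in both replicates, 6 of 7 for Ckm and 2 of 3 for Ckmt2 were below the median of all shared peaks, −0.01, against 2 of 10 for Ckb. For Slc6a8 it was 5 of 8, for Ak1 6 of 11 and for Ampd1 5 of 8. The fibre marker list moved the same way: all 10 promoters were below the median of 0.10, with ratios of −0.86 to 0.09 (median −0.31). The endothelial list was the other way, with all 5 above it, at 0.28 to 0.85 (median 0.58), and 3 of 3 open macrophage and immune markers were at 0.31 to 0.76. The smooth muscle and mural list was mixed, with 3 of the 4 genes open in both replicates below the median, at −0.37 to 0.26 (median −0.07). The part of cell makeup in the Ckm and Ckmt2 ratios was not tested.

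**Figure D5:**
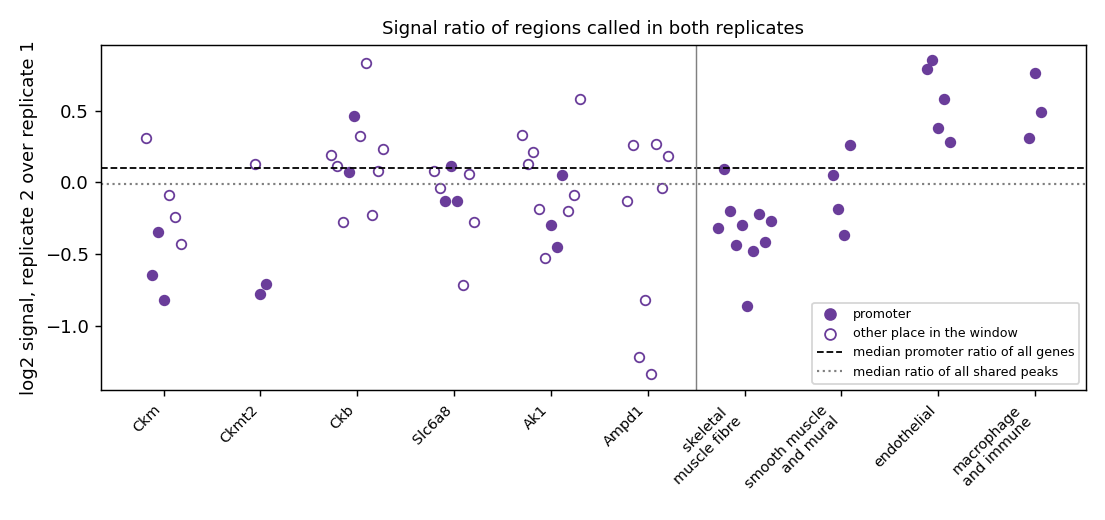
Log2 ratio of signal, replicate 2 over replicate 1, at each region called in both replicates, filled for promoter regions of the gene and open for other places in its window, beside the strongest promoter peaks of 4 marker lists, with lines at the median of all genes' promoters (dashed, 0.10) and of all shared peaks (dotted, −0.01). The start peaks of Ckmt2 at −0.71 and Ckm at −0.35 lie below both lines, as do 9 of the 10 fibre markers, and the 5 endothelial markers lie above them.

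Of 27 other genes of creatine and adenylate metabolism, 26 had a promoter peak in replicate 1 and 25 in replicate 2, and the median log2 ratio was 0.07. The median strongest promoter signal among open genes was 2.23 and 1.96 in replicates 1 and 2 for the 6 genes, and 2.95 and 3.37 for this list. Adss, an adenylosuccinate synthase, had 8.28 in replicate 1 and 9.03 in replicate 2. Nme1, a nucleoside diphosphate kinase, had 8.49 and 7.06, and Gamt, which makes creatine from guanidinoacetate, had 7.52 and 7.87. These 3 were the highest of the list and above any of the 6 genes. Ckmt1, the ubiquitous mitochondrial creatine kinase of brain and epithelia, had no promoter peak in either replicate, and Ak5, a brain adenylate kinase, had 0.198 in replicate 1 and none in replicate 2.

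The gene most like each in promoter signal and peak density was the one at the shortest Euclidean distance over 4 percentiles, 2 measures in 2 samples. For Slc6a8 it was 2210011C24Rik (1.89 percentile points), for Ckm Synpo (4.73), for Ckmt2 Zfp273 (6.97), for Ckb Odf3l1 (1.42), for Ak1 Lzts2 (1.34) and for Ampd1 Mfap2 (5.91). Synpo, which encodes the actin-associated protein synaptopodin, had promoter signals of 4.50 and 3.96 and 36 and 13 window peaks. Peak density in each replicate was used to choose Synpo, so its higher count in replicate 1 is not a separate observation.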

How the data were processed

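DNase-seq of gastrocnemius was measured in 2 samples of 1 group. Per the deposited file descriptions, the authors made 2 peak lists, a site list and a footprint list per sample on mm10, without pooling; the caller, the aligner and their versions are not given in the sources used here. The deposited signal is the peak list's own column, in the authors' unit. The deposited site file gives a p-value of the false discovery rate type, always under 0.05; in the footprint file that column is a constant 0.01 and was not used as a measurement. Depth is unknown.

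Genes came from GENCODE M21 with a flank of 20 kb and promoters of 1000 bp. Peaks were called shared with 1 bp of overlap. Motifs were searched on both strands in 300 bp windows and touch a footprint when they share 1 base with it; over all footprints, a motif had to lie whole in the footprint widened by 5 bp. Motifs needing other letters (MEF2, CArG, CTCF) are given by name. Percentiles run over all protein-coding genes, those with a promoter peak, or, for the region downstream of Ckb, all peaks of the replicate. The code ran in Python 3.11.15 with numpy 2.4.6, pandas 2.3.3 and matplotlib 3.10.9, and the interval and motif searches were tested on planted data. Members, gene lists and most motifs were chosen with earlier results of these data known; CTCF and TATAAA were added after values had been seen. Genes named besides the 6 are those with a peak in a window, the 3 highest and the unopened pathway genes, the most alike gene and the marker lists. Mappability and hybrid allele effects were not tested. With 1 group and no contrast, no test was run. Alternatives changed the peak list, windows, flanks, signal minimum, start sites, footprint choice and replicates.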

Additional observations from a re-analysis of the deposited data

How the results depend on the processing

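No paired analysis was possible because there is 1 group and no contrast. Means over the 2 replicates are given. Peaks in the 6 windows averaged 73, and 36 with no flank and 45.5 with 2 kb. Footprints averaged 215.5, and 104 with no flank, 139 with 2 kb, and 106.5 when only those of at least 10 bp were kept. Pairs of a footprint and a motif in it, leaving out CANNTG, CTCF and TATAAA, averaged 47.5, and 25 with no padding. These falls follow from the construction of the alternatives, which keep fewer bases or footprints. With 1 replicate left out, members with a promoter peak were 5 to 6, window peaks 53 to 93, footprints 169 to 262 and motif matches 43 to 52. With the first start site alone, Ak1 lost its promoter peak in both replicates, and members with a peak averaged 4.5 against 5.5. Peaks shared by both replicates cannot be counted with 1 replicate, so that alternative was not run. Apart from leaving out a replicate, 56 of 134 counts under alternatives, single genes included, moved by more than 1.5 times, and 1 of 24 promoter signals, that of Ak1, moved by more than 1 SD. Leaving out 1 of 2 replicates cannot move a mean signal by more than 1 SD, so it says nothing about stability there; the Ampd1 promoter signal was 1.08 in replicate 1 alone and 0 in replicate 2 alone.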
